A study of Mus musculus with 4 samples.

Results

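Among the nestin-GFP-positive cells sorted from the mouse dentate gyrus, 86 of 716 kept wells (12%) fell into an endothelial class. The cells were chosen by measured values, the counts of marker genes in each well. For each of 5 panels of 6 marker genes, a gene with 10 or more counts was a hit, and the well took the class with the most hits if it had at least 3 and no tie. The endothelial panel held Cldn5, Flt1, Pecam1, Kdr, Ly6c1 and Egfl7. The remaining kept wells were 298 in the oligodendrocyte class, 196 in the astrocyte or radial glia class, 85 in the mural class (pericytes and smooth muscle), 30 in the neuroblast class and 21 in no class. Because the classes were drawn from the counts, differences in gene levels between classes are given as descriptions, with no test.

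The data are Smart-seq2 read counts from 8 male mice carrying a nestin-GFP reporter, with 96 cells sorted per mouse from 1 whole dentate gyrus of both hemispheres. At 2 months of age, 4 mice received an infusion into the cerebral ventricle of 2 µl of a miR-132 antagomir, a cholesterol-modified locked nucleic acid oligonucleotide, dissolved at 0.33 nmol/ml in cerebrospinal fluid substitute. The other 4 received a scrambled locked nucleic acid oligonucleotide in that vehicle (its dose is not given here), and analysis was at 3 months. All 8 mice therefore share the reporter, the surgery and an infused oligonucleotide, and there was no uninjected group. The reporter limits what the class stands for, since these are the endothelial cells that passed a nestin-GFP gate and not all endothelial cells of the tissue. In the deposited well table mice 1, 3, 5 and 7 are scrambled and mice 2, 4, 6 and 8 antagomir. Mice 1 to 4 were sorted on day 1 and mice 5 to 8 on day 2. The project entry of the well table ends in L5 for mice 1, 2, 5 and 6 and in L6 for mice 3, 4, 7 and 8. These 2 sets of wells are called pools here. Each mouse counted as 1 replicate, since the labels list 2 samples per treatment that do not name their mice.

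Endothelial cells line blood vessels. In the brain they form the blood-brain barrier, in which tight junctions seal the space between cells and dedicated carriers move sugars, amino acids and lipids into the tissue while efflux pumps return drugs to the blood. VEGF, angiopoietin, Notch, Wnt and PDGF signals between endothelium, pericytes and glia build and maintain this barrier, and endothelial cells differ along the vessel from arteries through capillaries to veins. Nestin, an intermediate filament protein best known from neural stem cells, is also made by vascular cells.

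The oligonucleotide given to the antagomir mice is directed at miR-132. Its mature sequence is shown with that of miR-212, which is made from the same stretch of mouse chromosome 11, because the pair share a seed, the bases that choose the targets. Sequences are from RefSeq (GRCm38.p6), written 5′ to 3′, and the capitals mark bases 2 to 8.
miR-132-3p: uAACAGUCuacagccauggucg
miR-212-3p: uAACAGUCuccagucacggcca
The seed AACAGUC is identical in both. They lie on the plus strand at chr11:75173723-75173744 (miR-132-3p) and chr11:75173443-75173464 (miR-212-3p). Mature microRNAs were not measured, and no value for either is given here.

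The endothelial cells came from every mouse, with 18, 17, 13, 5, 11, 11, 3 and 8 cells from mice 1 to 8. As a share of a mouse's kept wells this was 19.4% (Wilson 95% interval 12.6% to 28.5%), 18.9%, 14.1%, 5.56%, 12.1%, 12.4%, 3.45% (1.18% to 9.65%) and 9.52%. The 4 mice of pool L5 lay between 12.1% and 19.4%, and those of pool L6 between 3.45% and 14.1%, so the pools overlapped across days. Within each sort day both mice of pool L5 lay above both mice of pool L6. An effect of the pool was not tested. An endothelial well held 15905 to 1044833 counts with a median of 574702, and 648 to 3119 detected genes with a median of 2003.5. Median mitochondrial share was 0.992% in the 57 cells of pool L5 and 4.20% in the 29 cells of pool L6. Gene levels are given as CPM, a gene's reads relative to all reads summed over a mouse's endothelial cells. Mouse 7, with 3 cells, was left out of values averaged over mice and of the fits, which leaves 4 antagomir and 3 scrambled mice.

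**Figure D1:**
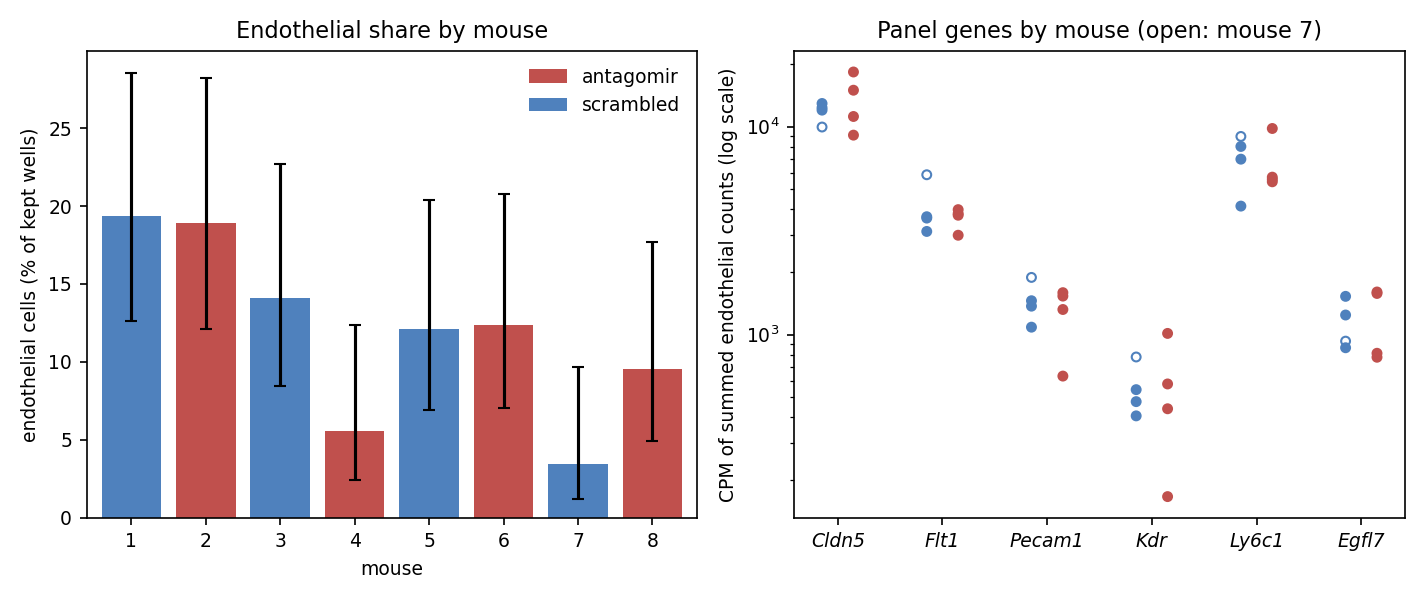
Left, endothelial cells as a percentage of each mouse's kept wells, with Wilson 95% intervals as bars and treatment as colour. Right, CPM of the 6 panel genes in each mouse on a log scale (points are mice, the open point is mouse 7). Shares run from 3.45% in mouse 7 to 19.4% in mouse 1, and antagomir and scrambled points overlap for all 6 genes.

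The 6 panel genes chose the cells, so their values are a description. Of the 86 cells, 41 had hits in all 6 genes, 36 in 5, 7 in 4 and 2 in 3. Cldn5, the claudin that seals brain endothelial tight junctions, had 10 or more counts in all 86 cells, as did Flt1, a VEGF receptor that acts in part as a decoy. Ly6c1, a surface protein of mouse brain endothelium, reached this level in 85 cells, Egfl7, a secreted endothelial protein, in 80, and Pecam1, the adhesion molecule CD31, in 69. Kdr, the main signalling receptor for VEGF-A, reached it in 54 cells (62.8%) and was the least often detected of the panel. Just inside the rule, 1 cell of mouse 3 had 3 hits with 3013 counts of Cldn5, 685 of Flt1 and 1016 of Kdr. The other cell with 3 hits, from mouse 8, was the shallowest member at 15905 counts and had 72 of Cldn5, 13 of Flt1 and 184 of Ly6c1. Just outside lay a well of mouse 1 with 2 hits, 1210 counts of Flt1 and 2144 of Ly6c1 but 0 of Cldn5, and a mural-class well of mouse 6 with 2 endothelial and 5 mural hits.

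In mice 1 to 6 and 8, Cldn5 stood at 12344, 14984, 12935.5, 11199.7, 12017, 18339.8 and 9109 CPM, so that the highest mouse (6) and the lowest (8) were both antagomir mice. Flt1 was the steadiest relative to its mean, with 3633, 3004, 3688, 3820.02, 3133, 3989.8 and 3751 CPM, or 3574 ± 365 (SD, n = 7). Kdr varied most, with 475, 578, 543, 166, 406, 1012 and 439 CPM, or 517 ± 256. Counts per gene depend on transcript length, so CPM is compared only within a gene.

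For 3 of the panel genes the bases just before the transcription start are shown, since ETS transcription factors with a GGAA core are known regulators of endothelial genes. The stretches are the 100 bases before the RefSeq start (GRCm38.p6), 5′ to 3′ on the gene's own strand. Capitals mark GGAA or its reverse complement TTCC.
Cldn5: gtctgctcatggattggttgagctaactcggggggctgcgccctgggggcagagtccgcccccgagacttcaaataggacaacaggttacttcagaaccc
Flt1: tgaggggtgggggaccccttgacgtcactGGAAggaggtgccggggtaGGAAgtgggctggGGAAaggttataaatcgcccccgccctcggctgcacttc
Kdr: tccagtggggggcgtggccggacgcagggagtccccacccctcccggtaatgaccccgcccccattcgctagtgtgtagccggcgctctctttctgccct
They lie at chr16:18776747-18776846 on the plus strand (Cldn5), chr5:147726012-147726111 on the minus strand (Flt1) and chr5:75978456-75978555 on the minus strand (Kdr). Flt1 held 3 matches, and Cldn5 and Kdr held 0. Across all 32851 RefSeq windows of this length, 66.8% held at least 1 match on either strand and 11.9% held 3 or more. A match is a description of letters and not a site of binding. Of the 6 panel genes, 5 had promoters in the table, and Pecam1 is named only.

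Ly6c1 has a near-identical neighbour, Ly6c2, better known from monocytes. The first listed transcripts of the pair were 97.6% identical over aligned bases, and 31.7% of the 50-base windows of Ly6c1 also occur in Ly6c2 transcripts. Ly6c1 had 296621 counts over the 86 cells, with 10 or more in 85 of them, and Ly6c2 had 319 counts, with 10 or more in 8 cells. Reads shared by both genes could be dropped or split by the counting, so the value of Ly6c1 is uncertain to that extent.

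Beyond the panel, the 15 genes with the widest gap in share of cells between the endothelial and every other class were Ly6a, Slco1a4, Itm2a, Adgrl4, Cdkn1a, Fn1, Ptprb, 9430020K01Rik, Spock2, Abcb1a, Cd34, Pglyrp1, Adgrf5, Cyyr1 and Wfdc1. Ly6a, the surface protein Sca-1, had 10 or more counts in 96.5% of endothelial cells, 1.18% of mural cells and 0% of each of the other classes. Slco1a4, a carrier of organic anions at the barrier, was at 96.5% against 2.35% in mural cells and 0% elsewhere. Itm2a, a membrane protein, was at 97.7% against 5.88% in mural cells. Adgrl4, an adhesion receptor of endothelium, was at 88.4% and at 0% in all 4 other classes, as was Pglyrp1, a peptidoglycan-binding protein, at 79.1%. Ptprb, the phosphatase that restrains the angiopoietin receptor, was at 84.9% and at 0% in the others. Fn1, fibronectin, was at 82.6% with 0% in mural cells. When cells were thinned to 200000 counts the shares were 96.1% for Ly6a, 94.8% for Slco1a4, 97.4% for Itm2a and 88.3% for Adgrl4 over 77 endothelial cells. Median depth was 542607 counts in mural and 834262 in oligodendrocyte wells.

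**Figure D2:**
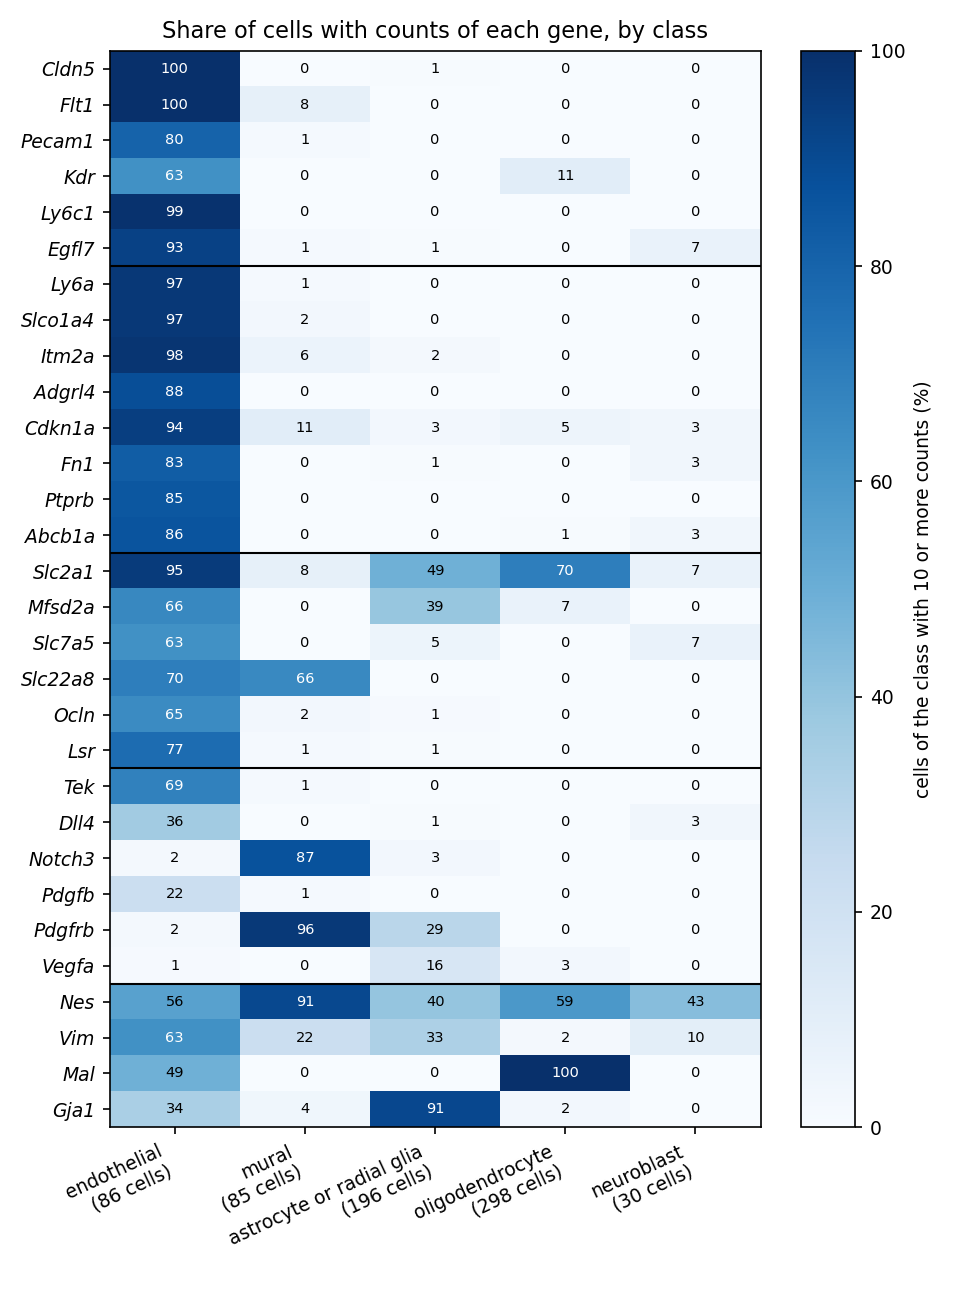
Percentage of cells with 10 or more counts of each gene (rows, grouped as panel, off-panel, barrier, signalling and other genes) in the 5 classes (columns, with the number of cells). Cldn5 reaches 100% of endothelial cells and 0% of mural cells, Slc22a8 is near equal in the pair (69.8% and 65.9%), and Notch3 and Pdgfrb lie mainly in the mural column.

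Cdkn1a encodes p21, an inhibitor of the cell cycle. It had 10 or more counts in 81 of the 86 endothelial cells (94.2%), against 10.6% of mural, 2.55% of astrocyte or radial glia, 4.70% of oligodendrocyte and 3.33% of neuroblast cells. In mice 1 to 8 it stood at 2924, 1897, 1507, 1368, 2878, 1373, 2173 and 3851 CPM in endothelial cells. The mean was 2257 ± 969 CPM (SD, n = 7 mice), and in mural cells it was 50.4 ± 67.5 (n = 8 mice). Both the lowest (mouse 4) and the highest (mouse 8) were antagomir mice. In the same cells the cycling genes Mki67, Top2a, Ccnb1 and Birc5 had 10 or more counts in 0 of 86 cells, which allows a share of up to 3.49%, and Cdk1 in 1 cell.

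A list of 30 further genes of general endothelial identity was measured, and each of the 30 was found in a larger share of endothelial cells than of any other class. How often this holds over all genes was not computed, so such counts, here and for the lists below, only describe the listed genes. Of the 30 genes, 21 were at 10 or more counts in at least 50% of endothelial cells. The angiopoietin receptor Tek and its partner Tie1 were each at 68.6%, the adherens junction cadherin Cdh5 at 75.6% (53.2% when thinned) and the nitric oxide synthase Nos3 at 66.3%. Among transcription factors, the SoxF genes Sox18, Sox7 and Sox17 were at 68.6%, 58.1% and 54.7%, the flow-responsive Klf2 and Klf4 at 70.9% and 55.8%, and the ETS factors Fli1 and Erg at 45.3% and 34.9%. Some of these genes were shared. S1pr1, the sphingosine phosphate receptor, was at 95.3% in endothelial and 94.9% in astrocyte or radial glia cells, and Esam and Eng were at 74.1% and 65.9% in mural cells. The wells of the mural class thus held several genes that are usually called endothelial, at 10 or more counts, while Cldn5, Kdr and Ly6c1 were at 0% in them.

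Barrier transport genes were broadly detected: 18 of 20 on the list reached 10 or more counts in at least 50% of endothelial cells, and 16 of 20 did so in a larger share than in any other class. Slc2a1, the glucose carrier GLUT1, was at 95.3%, against 69.8% of oligodendrocyte and 49.0% of astrocyte or radial glia cells. Its level differed widely between mice, at 8265, 6606, 3519, 4031, 9331, 3128, 3646 and 4260.4 CPM in mice 1 to 8. Mice 1, 2 and 5, all of pool L5, were at 6606 CPM or more and the other 5, mouse 6 of the same pool among them, at 4260.4 CPM or less. Mfsd2a, the lipid carrier that keeps transcytosis low, was at 66.3% of endothelial cells, 39.3% of astrocyte or radial glia cells and 0% of mural cells. The drug efflux pumps Abcb1a and Abcg2 were at 86.0% and 79.1%, the amino acid carrier Slc7a5 at 62.8%, and the thyroid hormone carrier Slco1c1 at 86.0%, the last of these also in 67.9% of astrocyte or radial glia cells. The transferrin receptor Tfrc (46.5%) and the reelin receptor Lrp8 (26.7%) were the 2 below 50%. Slc22a8, an organic anion carrier, and Car4, a carbonic anhydrase on the vessel surface, were at 65.9% and 78.8% of mural cells, beside 69.8% and 70.9% of endothelial cells.

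Of the tight and adherens junction genes, 8 of 13 were found in at least 50% of endothelial cells, with Lsr, a protein of tricellular contacts, at 76.7% and the tight junction protein Ocln at 65.1%, both at no more than 2.35% in any other class. Cgn was at 10 or more counts in 0 endothelial cells. Plvap, the diaphragm protein of leaky vessels, was likewise at 0 of 86 cells, whereas the caveola genes Cav1 and Cav2 were at 51.2% and 54.7%. Wnt pathway genes of the barrier were sparser, with 2 of 17 in at least 50% of cells, Lef1, a nuclear effector, at 54.7% and Sox17. The receptor gene Fzd4 was at 34.9%, and the transcription factor Foxq1, at 33.7%, was at 0% in every other class.

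Ligands and receptors of vessel signalling were measured next. For VEGF, the receptor genes Flt1 and Kdr are in the endothelial panel and chose the cells. The third receptor gene, Flt4, was in 43 of the 86 endothelial cells, while Vegfa was at 1.16% of them and at 15.8% of astrocyte or radial glia cells. Kdr was also at 10.7% of oligodendrocyte cells. For angiopoietin, Tek was endothelial, while Angpt1 was at 0% of endothelial, 7.06% of mural and 12.8% of astrocyte or radial glia cells. Pdgfb, the ligand that recruits pericytes, was at 22.1% of endothelial and 1.18% of mural cells, and its receptor gene Pdgfrb, which is in the mural panel, at 2.33% and 96.5%. For Notch, the ligands Dll4 and Jag2 were each at 36.0% of endothelial and 0% of mural cells, and Notch4 at 54.7% and 9.41%. Notch1 was at 64% and 74.1%, and Heyl, a Notch target, at 1.16% and 70.6%. The BMP receptor Acvrl1 was at 69.8% of endothelial cells, with the BMP target genes Id1 and Id3 at 86.0% and 88.4%, against 17.6% and 32.9% of mural cells. The tip cell genes Apln and Esm1 and the chemokine receptor Cxcr4 were at 10 or more counts in 0 endothelial cells.

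Genes of antigen presentation by MHC class I were also frequent, with B2m, the shared light chain, at 96.5% of endothelial cells, H2-D1 at 81.4% and H2-K1 at 62.8%. Of 13 such genes, 11 were in a larger share of endothelial cells than of any other class. Class II genes were nearly undetected, with Cd74, H2-Aa and H2-Ab1 at 0 cells and H2-Eb1 at 1 cell, and the leukocyte adhesion selectins Sele and Selp were at 0 cells. Plat, the tissue plasminogen activator, and Ece1, which activates endothelin, were at 75.6% and 70.9%, close to their shares of 78.8% and 74.1% in mural cells. Thbd, the anticoagulant thrombomodulin, was at 65.1% against 22.4%.

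Markers of other cell types were checked in the 86 cells. For microglia 6 of 7 genes were at 10 or more counts in 0 cells, and the remaining gene in under 10% of cells. The microglia genes summed to 0, 39.1, 69.5, 21.5, 47.9, 0.540, 68.8 and 0 CPM in mice 1 to 8. All 4 perivascular macrophage genes and 4 of 5 fibroblast genes were at 0 cells, and summed levels over mice were 0 for macrophage genes and at most 4.32 CPM for fibroblast genes. Haemoglobin genes were at 2370 CPM in mouse 1, 23.8 in mouse 4 and 0 in the other mice. Within the panels of the rule, Acta2, Mog, Mag, Opalin, Ermn, Ugt8a, Mlc1, Aqp4, Aldoc, Dcx, Sox11, Igfbpl1 and Neurod1 were at 0 cells. Mal and Gja1 were the most frequent genes of the other panels. Mal, a myelin and membrane-raft protein, was at 10 or more counts in 42 endothelial cells, and in all 42 it was the only oligodendrocyte panel gene to be so. Gja1, connexin 43, was in 29 cells, in 27 of which no other astrocyte panel gene reached 10 counts. Mal was at 0% in mural and in astrocyte or radial glia cells, and Gja1 at 3.53% in mural cells. In mice 1 to 8 Mal was at 322, 532, 476, 557, 562, 347, 0 and 784 CPM of the endothelial sums, and mouse 7 at 0 rests on 3 cells.

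No doublet caller was run. Only 3 of the 86 cells had 3 or more hits in another panel, 2 from mouse 5 with 3 and 5 mural hits and 1 from mouse 8 with 3 astrocyte hits. Rgs5, a pericyte gene, was the most frequent mural panel gene, at 11 cells.

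Position along the vessel was described with lists of 17 arterial, 12 capillary and 14 venous genes. A cell had 2 to 11 capillary hits with a median of 8, 0 to 13 arterial hits with a median of 2, and 0 to 5 venous hits with a median of 2. Thus 75 cells had 5 or more capillary hits, 12 had 5 or more arterial hits and 2 had 5 venous hits. The lists differ in how common their genes are. Of the capillary genes 9 of 12 were in at least 50% of endothelial cells, against 2 of 17 arterial and 1 of 14 venous genes. Hits therefore cannot be compared between lists and do not give the share of capillary, arterial or venous cells. Across the 86 cells the Spearman correlation of arterial and capillary hits was -0.06, and that of arterial hits and detected genes, which rest on the same counts, was 0.55.

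Sema3g, a semaphorin of arterial endothelium, and Slc38a5, a glutamine carrier of veins and venous capillaries, were never found in the same cell: 15 cells had 10 or more counts of Sema3g, 21 had Slc38a5 and 0 had both. Cells with Sema3g came from 6 mice, with 3, 3, 3, 0, 3, 0, 1 and 2 cells in mice 1 to 8, and those with Slc38a5 from 7 mice, with 5, 4, 2, 1, 3, 5, 0 and 1. The genes below come from the same cells and were picked after their shares were seen, so they are a description with no test.

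Cells with Sema3g had several other genes of the arterial list more often, but not all of them. Alpl, an alkaline phosphatase, was at 10 or more counts in 12 of 15 of them (80.0%) and in 25.4% of the 71 cells without Sema3g. Tm4sf1, a tetraspanin-like surface protein, was in 100% against 59.2%, and the arterial gene Gkn3 in 33.3% against 1.41%. The Notch ligand Jag2, which is not on the arterial list, was in 9 of the 15 cells against 31.0%. Stmn2, a neuroblast panel gene that is also on the arterial list, was in 6 of the 15 cells against 2.82%. Efnb2 (6.67% against 5.63%) and Jag1 (13.3% against 11.3%), both on the arterial list, differed little. Unc5b (13.3% against 15.5%), Gja4 (0% against 2.82%) and Gja5 (0% against 1.41%) of that list were no more frequent with Sema3g. Several other genes were less frequent in the cells with Sema3g. Of the capillary list, Car4 was in 26.7% against 80.3%, Slc7a5 in 33.3% against 69.0% and Tfrc in 3 of the 15 cells against 52.1%, while Cxcl12 was in 100% against 91.5%. Of the other lists, the iron exporter Slc40a1 was in 3 of the 15 cells against 59.2%, and Kdr, a panel gene, in 33.3% against 69.0%. Median detected genes were 2195 with and 1962 without Sema3g. At 200000 counts per cell Alpl was in 78.6% against 25.4% and Car4 in 21.4% against 81%. Within pool L5 Alpl was in 77.8% against 29.2% and Car4 in 22.2% against 81.2%, and within pool L6 Alpl was in 83.3% against 17.4% and Car4 in 33.3% against 78.3%.

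Cells with Slc38a5 had iron and amino acid carriers more often: Tfrc was in 71.4% of the 21 against 38.5% of the 65 cells without it, Slc40a1 in 17 cells against 43.1% and Slc7a5 in 85.7% against 55.4%. Kdr was in 90.5% against 53.8%, and Tmsb10, an actin-binding peptide on the venous list, in 95.2% against 63.1%. Alpl was in 14.3% against 41.5%. Median detected genes were 2027 and 2003. The other venous genes did not form 1 group with it, as Vwf was in 19.0% against 26.2% and Ackr1 and Lrg1 were at 0 cells.

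**Figure D3:**
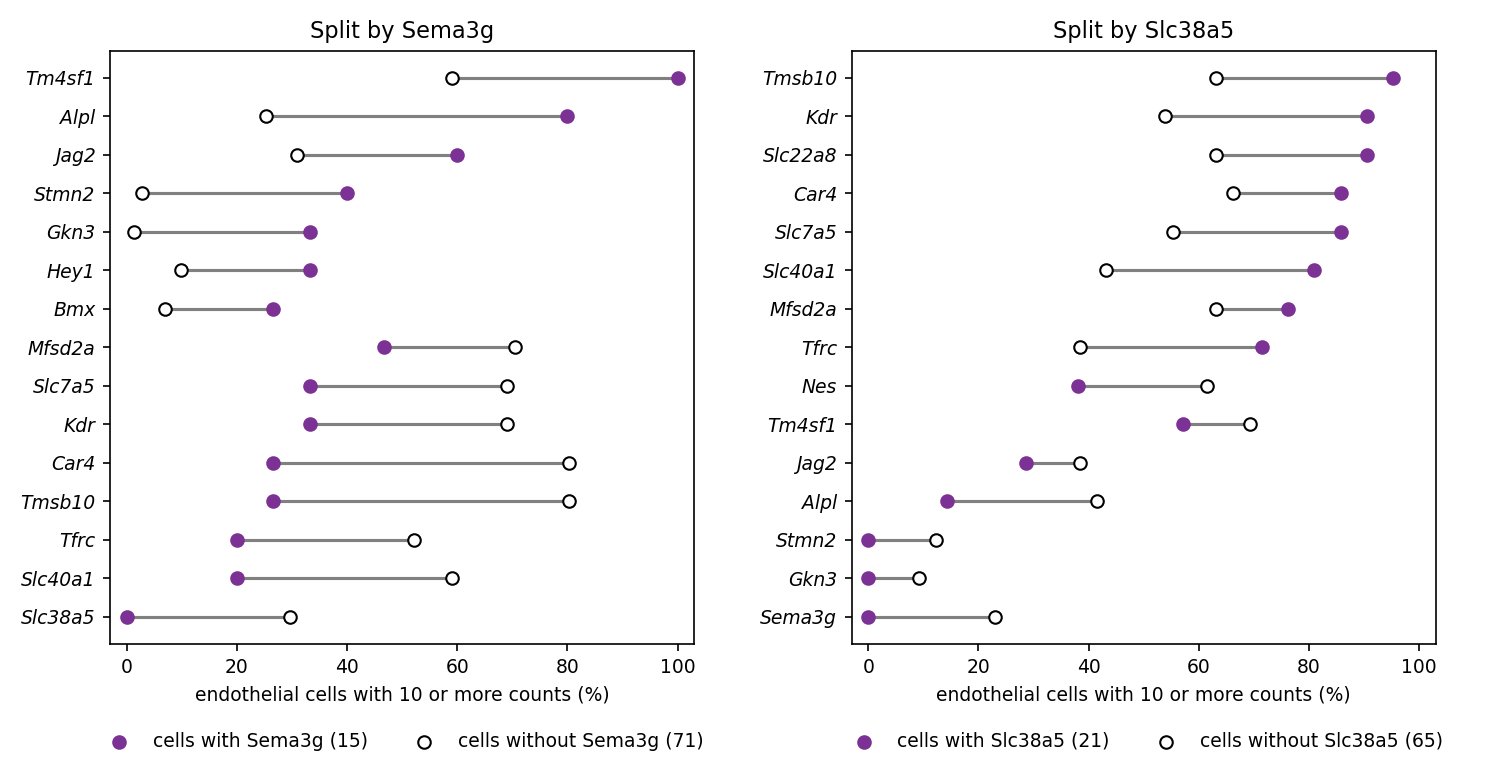
Percentage of endothelial cells with 10 or more counts of each gene, for cells with (filled) and without (open) Sema3g (left, 15 and 71 cells) or Slc38a5 (right, 21 and 65 cells). Alpl lies at 80.0% with and 25.4% without Sema3g, and at 14.3% with and 41.5% without Slc38a5, while Kdr and Car4 lie in the reverse order.

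Nes, the gene behind the reporter, was at 10 or more counts in 48 of the 86 endothelial cells (55.8%, and 49.4% when thinned). The share was 90.6% in the mural class (88.5% when thinned) and 59.4% in the oligodendrocyte class (23.2% when thinned), so the order of endothelial and oligodendrocyte cells is the reverse at equal counts. Mean Nes levels were 246 ± 129 CPM in endothelial cells (SD, n = 7 mice) and 31.1 ± 7.75 in oligodendrocyte cells. In mice 1 to 8 its level in endothelial cells was 430.4, 201, 126, 342, 362, 146, 345 and 117 CPM. Vim, another intermediate filament gene, was at 62.8% of endothelial cells, Synm at 36.0%, Des at 1 cell and Gfap at 0 cells. Slc38a5 was in 16.7% of cells with Nes and 34.2% of those without. Within pool L5 this was 18.2% against 45.8%, and within pool L6 it was 13.3% against 14.3%.

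Immediate early genes were detected in many of the cells. Of 17 listed genes, 15 reached 10 or more counts in a larger share of endothelial cells than of any other class. The share over all genes was not computed, so this count only describes the list. In endothelial cells Jun was at 75.6%, the phosphatase gene Dusp1 at 73.3% and Fos at 60.5%. Such genes are known to be induced by tissue dissociation as well as by signals in the animal, and the part of either was not tested. Their summed level was 25469.8, 28226, 22426, 9385, 17371, 12198, 12542 and 7589 CPM in mice 1 to 8. Mice 1, 2 and 3 were the highest, all sorted on day 1, but mouse 4 of the same day was lower than 3 of the 4 mice of day 2. The cells with Nes had a median of 11 of these genes at 10 or more counts, and those without Nes 6.5. Btg2, an antiproliferative gene, was in 77.1% of cells with Nes and 44.7% without, and Dusp1 in 85.4% and 57.9%. Detected genes differed as well, with medians of 2149.5 and 1798, and at 200000 counts per cell Btg2 was in 76.1% against 51.6%, and Dusp1 in 84.8% against 64.5%. Other genes of the list differed less, among them Klf6 (64.6% with Nes against 60.5%) and Fosl2 (20.8% against 18.4%). At 200000 counts these 2 were in 63.0% against 61.3% and 19.6% against 19.4%.

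**Figure D4:**
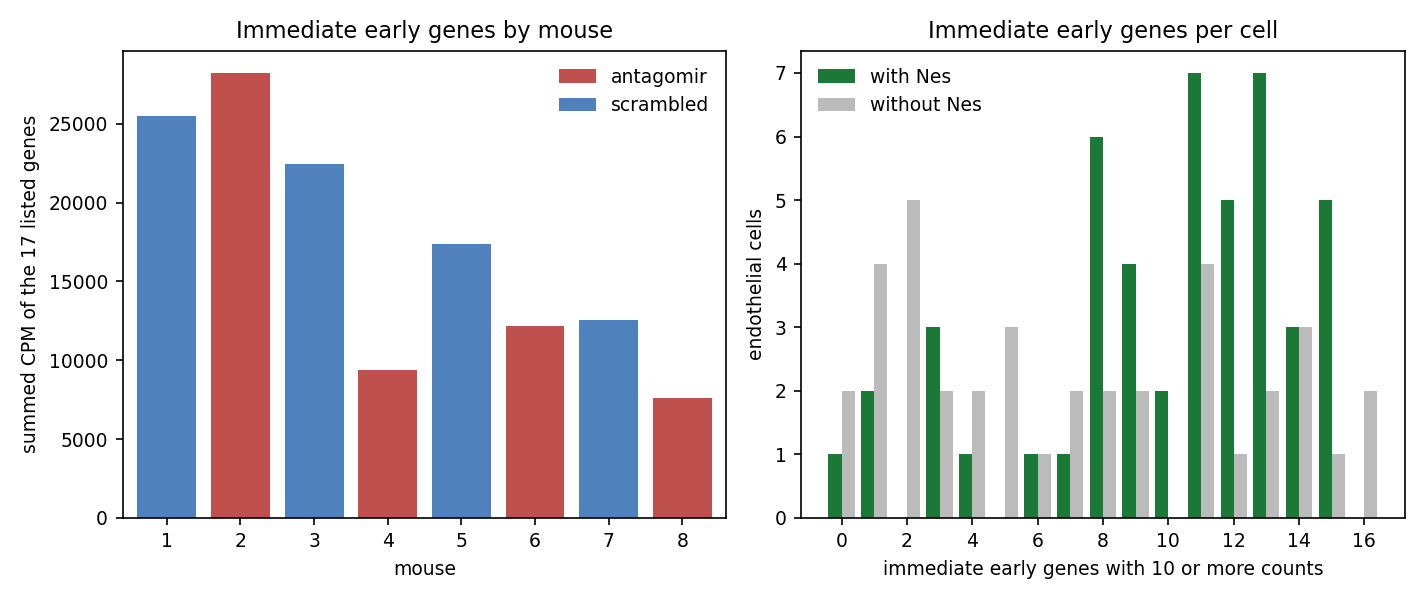
Left, summed CPM of 17 immediate early genes in the endothelial cells of each mouse, coloured by treatment. Right, number of endothelial cells (vertical) by how many of these genes had 10 or more counts, for cells with and without Nes. Mouse 2 is highest at 28226 CPM and mouse 8 lowest at 7589, and cells with Nes have a median of 11 genes.

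The antagomir was compared with the scrambled oligonucleotide in endothelial counts summed per mouse, 4 against 3 mice. No gene of 7716 passed (0%) at an adjusted p under 0.05 in edgeR's quasi-likelihood test with Benjamini-Hochberg adjustment. Unadjusted, 85 genes (1.1%) were higher and 80 (1.04%) lower with p under 0.05, and limma on mean log2(CPM + 1) also called 0 genes (0%). DESeq2 called 40 higher and 27 lower of 7242 genes with an adjusted p (0.925%), and edgeR with no filter on low counts called 1 higher and 5 lower of 17075. The fit was imprecise, since the 95% interval of a log2 difference reached a median of 4.475 to either side in the 6010 genes above 20 CPM. In counts simulated for this comparison with the spread of these sums, 1 of 100 genes changed 4-fold and 26 of 100 changed 64-fold were recovered. The count of 0 therefore says little about changes of a few fold.

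The panel genes chose the cells, so their treatment differences are a description. The log2 difference, antagomir minus scrambled, was 0.02 for Cldn5 (SE 0.26), -0.05 for Flt1 (SE 0.23) and -0.05 for Ly6c1 (SE 0.25). It was -0.13 for Pecam1, -0.10 for Egfl7 and 0.14 for Kdr, with SEs of 0.39, 0.43 and 0.59. Antagomir and scrambled mice overlapped for each of the 6 genes. For Cdkn1a, which is also on a list of reported miR-132 targets, the difference was -0.30 (SE 0.44, 95% interval -1.27 to 0.68), and -0.75 to -0.06 with each mouse left out in turn.

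Nacc2, a transcriptional regulator on which the series centres, was detected in few endothelial cells. It had 10 or more counts in 8 of the 86 cells (9.30%), against 42.9% of astrocyte or radial glia and 55.7% of oligodendrocyte cells. In mice 1 to 8 its level was 18.8, 9.94, 57.8, 0, 0, 86.1, 0 and 0 CPM, so that 4 of the 8 mice had none. The log2 difference was -0.17 with an SE of 2.96 and an interval from -6.65 to 6.32. The interval spans large changes of either sign. Nes gave -0.76 (SE 0.68, 95% interval -2.25 to 0.72), and -1.16 to -0.34 with each mouse left out, and its groups overlapped.

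The 10 genes named by smallest p, among those with counts in at least 10 endothelial cells, all had an adjusted p of 1.00 in edgeR. Adam15, a membrane metalloprotease, stood at 453, 463, 999.8 and 378 CPM in antagomir mice 2, 4, 6 and 8 and at 231, 181 and 156 in scrambled mice 1, 3 and 5. The groups did not overlap, and the log2 difference was 1.48 (SE 0.54). Tmem98, a membrane protein, was at 458, 295, 718 and 516 against 169, 158 and 180.1 CPM (1.47, SE 0.54). Among all tested genes, 5.12% had groups that did not overlap. In mouse 7, the scrambled mouse outside the fit, Adam15 was at 94.3 CPM and Tmem98 at 0, on the side of the other scrambled mice. The other 3 higher genes were Abcf1, Bicd2 and 9530082P21Rik, the last annotated as an antisense transcript, whose reads cannot be told from its partner's without strand. Mouse 7 was at 240.2 CPM for 9530082P21Rik, within the antagomir range of 89.5 to 371 CPM.

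Among the lower genes, Nde1, a centrosome protein, was at 0 to 7.20 CPM in antagomir mice and 129 to 340 in scrambled mice of the fit, and mouse 7 was at 61.5. The groups of Nipbl and Cnnm4 also did not overlap. For Cnnm4, 69.3% of counts came from 1 cell, and scrambled mouse 7 was at 0.521 CPM, beside 0 to 0.18 in antagomir mice and 8.23 to 90.8 in the scrambled mice of the fit. DESeq2 called 6 of the 10 genes: 9530082P21Rik (adjusted p = 0.005), Bicd2 (0.0196), Nde1 (0.0131), Nipbl (0.0348), Cnnm4 (0.0179) and Vtn (3.07e-05). Over all alternatives the adjusted p ran from these values to 1 for the first 5 and from 1.15e-09 (edgeR with no filter on low counts) to 1 for Vtn. Vtn, vitronectin, gave -9.23 (SE 2.04), but it is a mural panel gene. Its scrambled mice 1, 3 and 5 were at 120.4, 1.76 and 1418 CPM, and 75.3% of its counts came from 1 cell. Without mouse 5 the difference was -6.33. The mural panel summed to 197 to 1942 CPM in scrambled and 435 to 1627 in antagomir mice of the fit, and its part in the Vtn value was not tested.

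**Figure D5:**
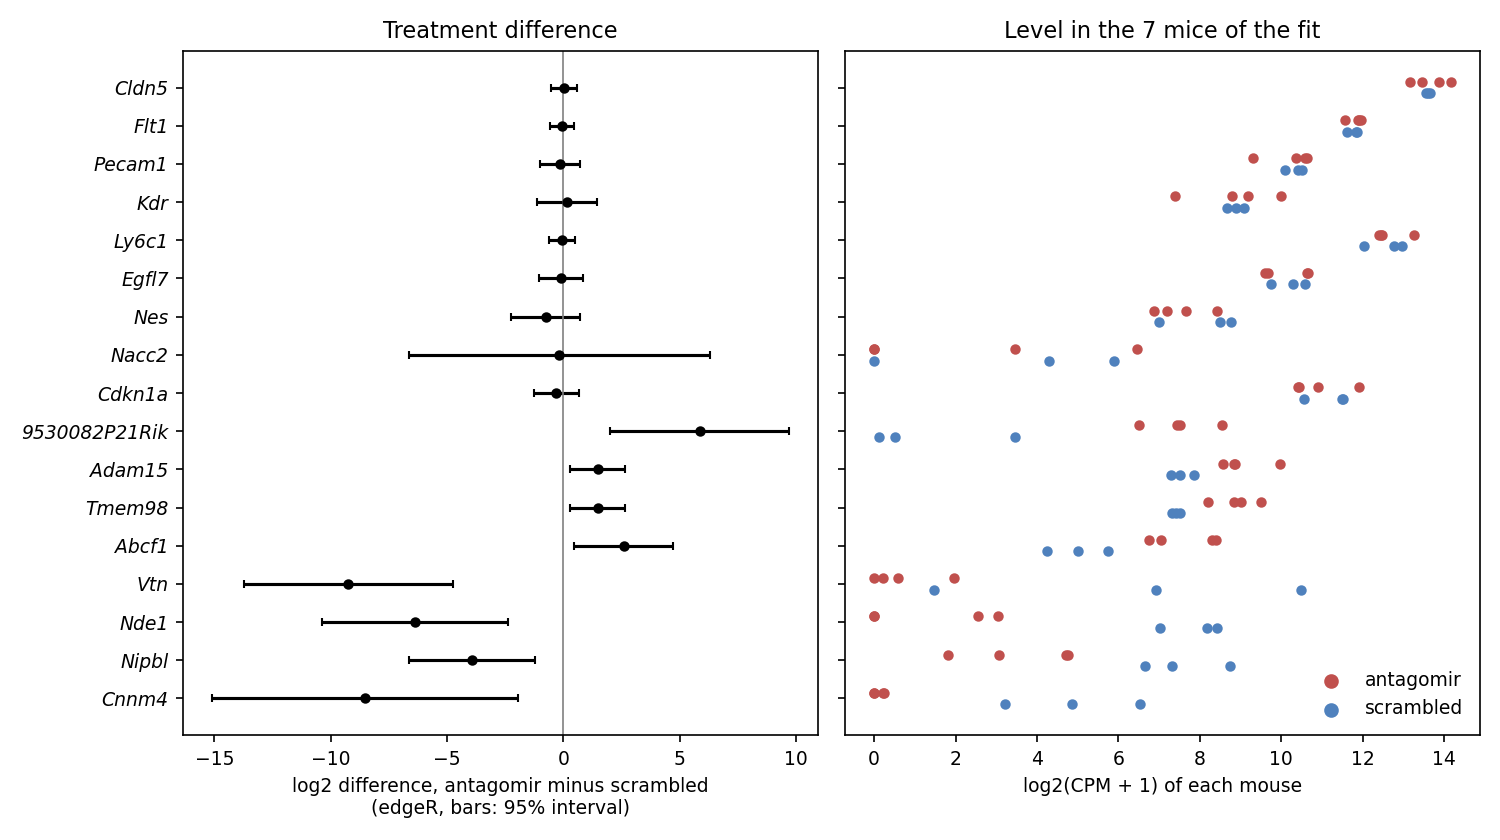
Left, log2 difference between antagomir and scrambled mice with 95% intervals (edgeR) for the 6 panel genes, Nes, Nacc2, Cdkn1a and the 4 genes of smallest p in each direction. Right, log2(CPM + 1) of the same genes in the 7 mice of the fit (points are mice, colour is treatment). The panel genes lie between -0.13 and 0.14, and no gene shown passed an adjusted p under 0.05.

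By list, 0 genes passed in any of the groups described above. Over all 7716 genes 3644 differences were above 0 and the median was -0.07. Of 20 barrier transport genes 11 were above 0 with a median of 0.02, and of 30 endothelial identity genes 16, with a median of 0.04. Under limma 4 of the 20 transport genes were above 0, with a median of -0.45. The limma median was -0.22 for the identity genes (14 of 30 above 0) and -0.03 over all genes. Under DESeq2 the counts above 0 were 13 of 20 and 17 of 30, with medians of 0.09 for both lists. For Notch genes 0 of 9 were above 0, with a median of -0.84, while 1 of 9 was above 0 under DESeq2 and 2 of 9 under limma. Without antagomir mouse 6 the median was -0.48. The summed level of the Notch list was 2216, 1460.1, 861 and 1898 CPM in antagomir mice 2, 4, 6 and 8 and 2409, 1751 and 1887 in scrambled mice 1, 3 and 5, and the groups overlapped. Scrambled mouse 7, outside the fit, was at 1004 CPM. For immediate early genes 3 of 17 were above 0, with a median of -0.53, and their sums overlapped as given above. Within pool L5, 10 of the 17 were above 0 and the median was 0.04. The median was -0.24 without scrambled mouse 1 and -1.37 without antagomir mouse 2. Of 26 reported miR-132 targets 19 were tested, 9 were above 0 and the median was -0.07. The list's median was 0.40 with all 8 mice, against 0.08 over all genes, and ranged from -0.09 to 0.23 with each mouse left out in turn.

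The antagomir difference in endothelial cells was then set against that in all other kept wells, in an edgeR fit blocked on the mouse. No gene of 15588 passed (0%). Unadjusted, 91 (0.584%) were higher and 282 (1.81%) lower. Sept8 had the smallest adjusted p, 0.074. Of the genes named in this comparison, Papss1, an enzyme of sulfate activation, was at 154 ± 73.1 CPM in endothelial cells of antagomir mice (SD, n = 4) and 14.2 ± 7.47 in those of scrambled mice (n = 3). In the other wells it was at 210.3 ± 62.9 and 291 ± 56.6 CPM. The difference of the log2 differences was 3.89 (SE 1.17, edgeR adjusted p = 1.00). Nde1 gave -7.77 (SE 2.11, adjusted p = 1.00), with 3.01 ± 3.61 against 252 ± 110 CPM in endothelial cells and 142 ± 53.6 against 162 ± 23.7 in the others.

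The endothelial share of kept wells was 11.6% ± 5.61 in antagomir and 12.3% ± 6.62 in scrambled mice (SD, n = 4 each). The difference of -0.67 percentage points was smaller than the spread between mice (two-sided exact permutation test, p = 0.829). It was -0.0972 within pool L5, -1.25 within pool L6, -4.52 within sort day 1 and 3.17 within sort day 2. Endothelial cells with at least 1 count of Nes made up 70.6%, 80.0%, 45.5% and 62.5% in antagomir mice 2, 4, 6 and 8 and 66.7%, 46.2% and 72.7% in scrambled mice 1, 3 and 5. The means were 64.6% ± 14.7 (SD, n = 4) and 61.8% ± 13.9 (n = 3), with p = 0.857 in the exact permutation test. At 10 or more counts of Nes the means were 62.4% and 52.6%, a difference of 9.81 points (exact permutation test, p = 0.514). The difference of 2.79 points was -11.7 within pool L5 and 18.9 within sort day 1. Median detected genes per endothelial cell were 2364, 2091, 1614 and 1553 in the antagomir mice and 2018, 1977 and 2036 in the scrambled mice, a difference of means of -105 (p = 0.629, exact permutation test). That difference was -38.0 within pool L5 and 230.0 within sort day 1. With 4 against 3 mice this test cannot go below 0.0571. Adjusted over the 3 exact tests, each p was 0.857.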

How the data were processed

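The authors deposited raw read counts per gene symbol and well (31557 symbols, 768 wells) and a table naming each well's mouse, treatment, sort day and project, whose ending gave the pool. Per the labels' protocols, poly(A) RNA was copied by Smart-seq2 with no molecular identifiers, and each count is a sequencing read. The submitters' processing notes name STAR 2.5.2, featureCounts 1.5.1, Seurat 2.3.1 and mm10; no source used here gives the annotation release or strand setting. Wells with 500 to 6000 detected genes were kept (36 fell below, 16 above) and classed by the marker rule. The members and lists were chosen with earlier results of these data known.

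Counts were summed per mouse over mice with at least 5 endothelial cells and tested with edgeR 4.0.16 (filterByExpr, TMM, quasi-likelihood test, Benjamini-Hochberg adjustment); DESeq2 1.42.0 and limma 3.58.1 were alternatives. Single values had two-sided exact permutation tests. Shares of cells use 10 or more counts. Wilson intervals and floors (3 counts) cover counting error only, while the edgeR intervals also include the spread between mice. Of the listed symbols, 8 had no row of that name and were not analysed here. Code was tested on simulated data. Coordinates and promoter windows are from RefSeq (GRCm38.p6).

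Named genes were the panel, Nes and Nacc2; the 5 genes per direction of smallest p with counts in at least 10 endothelial cells (3 per direction for the comparison with other wells); the 15 genes of widest gap between classes; the 4 genes of highest mean CPM in each list; and all members of the arterial, capillary, venous, barrier and signalling lists. Genes named outside this rule (among them Sept8, genes at 0 cells and further members of the other lists) and those described in the splits of cells were picked after their values were seen. A few results under this rule are not reported here.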

Additional observations from a re-analysis of the deposited data

Results flagged for a closer look

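In 46 groups of 4 mice checked, 5 had 1 mouse far from the others. Chance gives about 1 in 20 where values are normally distributed, which sums over few cells need not be. This rate does not hold for the last pair below, where 3 of 4 mice are at 0 and any other value stands apart. Adam15 was at 1000 CPM in antagomir mouse 6, with the other antagomir mice at 378 to 463. Ly6c1 was at 9810 CPM in antagomir mouse 4, with the others at 5430 to 5720. Nacc2 was at 86.1 CPM in antagomir mouse 6, with the others at 0 to 9.94. Fibroblast genes summed to 4.32 CPM in mouse 8 and haemoglobin genes to 23.8 CPM in mouse 4, with the other antagomir mice at 0 for both.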

How the results depend on the processing

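The count of 0 genes by treatment became 6 with no filter on low counts and 67 with DESeq2, and stayed 0 under the others run, each left-out mouse and the replicate block among them. Between endothelial and other wells it became 2 with the mural class and 10 with no replicate block. Treatment log2 differences near 0 changed sign. With each mouse left out they ranged from -0.14 to 0.17 (Cldn5), -0.14 to 0.06 (Flt1), -0.30 to 0.09 (Pecam1), -0.28 to 0.47 (Kdr), -0.23 to 0.10 (Ly6c1), -0.35 to 0.19 (Egfl7) and -2.79 to 1.11 (Nacc2). Under limma, Flt1 was 0.15, Ly6c1 0.48, Egfl7 0.66 and Nes 0.15; under DESeq2, Flt1 0.04 and Ly6c1 0.02; in genes with counts in 10 cells, Flt1 0.01 and Ly6c1 0.00; thinned, Flt1 0.10. With the replicate block, the Notch median was -1.26 and that of miR-132 targets 0.28 (-0.35 over all genes), Pecam1 was 0.09, Kdr -0.10, Ly6c1 0.01 and Egfl7 0.00. Within sort day 1, Cldn5 was -0.01, Kdr -0.43 and Ly6c1 0.21; within pool L5, Pecam1 0.27, Egfl7 0.32 and Nacc2 2.11; with all 8 mice, Egfl7 0.09 and Nacc2 0.25. The endothelial share ranged from -3.61 to 1.69 points with each mouse left out, and was 3.17 within sort day 2. The Nes share ranged from -5.06 to 9.18, and was -11.7 within pool L5 and -1.07 thinned. Detected genes ranged from -258 to 12.7, and were 230.0 within sort day 1, 112 with all 8 mice and 12.7 in the replicate block. With mouse 7 left out, mouse 8 has no partner of its day and pool. The treatment fits with the replicate block and the blocked value of detected genes therefore rest on the other mice. The cause of the sign changes was not tested. Of 396 recomputed shares of cells, 395 stayed within 1 SD between mice of the main share. Most of these settings only left out 1 mouse, which moves a pooled share little, so that count says little. The analysis of members with no hit in another panel could not be run, as too few cells were left. Pairs of mice that share sort day and pool had correlations of deviations of 0.0118, 0.0185 and 0.00213. In sums of so few cells, values near 0 cannot show whether day or pool had an effect. Within-batch values, all 8 mice, members with under 3 hits in every other panel and the blocked exact values were added after seeing the data.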
